A study of Mus musculus with 4 samples.

Results

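The genes described here are those of de novo fatty acid synthesis, the pathway that builds palmitate from acetyl-CoA. The members are given by gene name and the rule uses no measured value, although the list was drawn up with earlier results of these data known: Srebf1, Mlxipl, Acly, Acss2, Acaca, Acacb, Fasn, Me1, Mid1ip1 and Thrsp. All 10 were found in the deposited table of 54532 genes. RNA was sequenced in bulk from thymic epithelial cells of C57BL/6 mice that lacked SCD1 and of littermate controls with the genotype WT. Medullary cells (mTEC) were sorted as Ly51- UEA1+ and cortical cells (cTEC) as Ly51+ UEA1-. This gave 4 libraries, 1 for each pairing of genotype and population: control mTEC, knockout mTEC, control cTEC and knockout cTEC. What was not given in the sources used here is the age and sex of the mice, the number of mice per library and the tissues in which the gene was deleted. With 1 library per group there is no replicate check and no p-value. Every 95% interval covers counting error only, and each comparison sets single libraries side by side.

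Fatty acid synthesis begins with acetyl-CoA in the cytosol, made from citrate by ATP citrate lyase (Acly) or from acetate by the synthetase Acss2. The acetyl-CoA carboxylases turn it into malonyl-CoA, and fatty acid synthase (Fasn) joins these units into palmitate with NADPH, part of which comes from malic enzyme (Me1). Elongation of palmitate gives stearate, the substrate that SCD1 desaturates to oleate. Transcription of the pathway is driven by SREBP1 (gene Srebf1), which is released from the endoplasmic reticulum by cleavage and responds to insulin and sterols, and by ChREBP (gene Mlxipl), which responds to sugars. Mouse thymic epithelium is not a classical lipogenic tissue such as liver or fat.

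The libraries held 15740383 to 18151725 reads assigned to genes. Scd1 had 1310 control and 278 knockout reads in mTEC and 325 and 73 in cTEC. The sorted populations could be told apart by their markers. The 10 cTEC markers, among them the thymoproteasome gene Psmb11, summed to 18291 and 22887 CPM in control and knockout cTEC and to 3060 and 3695 CPM in mTEC. CPM is the read count scaled to library size, the usual depth unit of the field. The 10 mTEC markers, Aire among them, summed to 7612 and 7452 CPM in mTEC and to 3447 and 3064 CPM in cTEC, so each population also held reads of the other's markers.

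The largest differences among the 10 genes lay between mTEC and cTEC. Srebf1 and Fasn were higher in cTEC, and Acacb and Thrsp were higher in mTEC, and this held in the control pair and again in the knockout pair, which share no library. The RefSeq promoters of these 4 genes (build GRCm38.p6, the 250 bases before the start site, 5′ to 3′ on the gene's strand) are shown because they belong to the genes with opposite patterns. Capitals mark CCAAT or its reverse complement ATTGG, the box that NF-Y binds beside SREBP at many lipid genes. For Srebf1, which has 3 RefSeq starts, the most downstream is printed. The RefSeq start of Acacb lies inside the deposited gene, downstream of its first base.
Srebf1, chr11:60210472-60210721, minus strand: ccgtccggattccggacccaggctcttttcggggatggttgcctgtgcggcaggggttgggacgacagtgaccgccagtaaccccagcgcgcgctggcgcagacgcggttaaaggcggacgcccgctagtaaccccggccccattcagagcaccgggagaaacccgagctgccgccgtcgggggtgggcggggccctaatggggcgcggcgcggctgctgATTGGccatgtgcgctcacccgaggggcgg
Fasn, chr11:120824548-120824797, minus strand: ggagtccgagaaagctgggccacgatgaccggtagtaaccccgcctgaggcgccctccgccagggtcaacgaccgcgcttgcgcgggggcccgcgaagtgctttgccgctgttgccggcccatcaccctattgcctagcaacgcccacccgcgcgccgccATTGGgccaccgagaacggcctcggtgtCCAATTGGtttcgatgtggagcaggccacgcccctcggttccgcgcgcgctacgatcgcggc
Acacb, chr5:114165268-114165517, plus strand: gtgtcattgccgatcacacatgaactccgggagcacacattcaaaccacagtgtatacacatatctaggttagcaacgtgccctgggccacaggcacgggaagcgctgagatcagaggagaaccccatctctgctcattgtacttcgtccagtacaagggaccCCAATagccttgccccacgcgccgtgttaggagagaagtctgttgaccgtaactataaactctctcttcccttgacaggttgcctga
Thrsp, chr7:97417551-97417800, minus strand: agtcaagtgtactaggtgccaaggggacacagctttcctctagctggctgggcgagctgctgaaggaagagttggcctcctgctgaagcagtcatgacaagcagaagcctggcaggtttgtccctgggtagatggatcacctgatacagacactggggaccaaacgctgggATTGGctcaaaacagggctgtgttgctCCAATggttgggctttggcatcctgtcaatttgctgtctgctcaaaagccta

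The Fasn window held 3 such boxes, whose first bases lay 90, 62 and 59 bases before the start site. The last 2 of them overlap, since CCAATTGG reads as the box on both strands. Thrsp held 2 boxes, at 79 and 52 bases, and Acacb and the printed Srebf1 window 1 each, at 87 and 30 bases. Of the Srebf1 windows not printed, the most upstream held 1 box, at 166 bases, and the middle one none. Gene counts do not show which Srebf1 start was used. All 10 genes matched the promoter table, with 14 start sites in all. Some of these, that of Acaca among them, also lie inside the deposited gene. CCAAT, searched on both strands, was found in 8 of the 14 windows, against 33.8% of 32851 mouse promoter windows of the same length. These windows belong to 7 of the 10 genes, and the share per gene over all genes was not taken. A sterol regulatory element core spelled TCACNCCAC was in 1 of the 14 windows, at the downstream Mlxipl start site (chr5:135106641-135106890), against 1.05% of all windows. The E-box CACGTG was in 1, at the other Mlxipl start, against 6.02%. The GC box GGGCGG was in 7, against 32.7%. Thus, in the 4 printed windows, genes higher in cTEC and genes higher in mTEC both carried the CCAAT letters. None of these windows carried the E-box or the sterol element as spelled. These matches describe letters in a window and not binding.

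Levels of different genes were compared per gene length, as TPM (read counts divided by gene length and scaled to a common total) from the counts and the deposited lengths. In cTEC, Srebf1 stood first at 236 TPM in the control and 267 TPM in the knockout library, and Fasn second at 123 and 162 TPM. Acly followed at 64.3 and 65.3 TPM and Me1 at 53.0 and 54.5 TPM. Srebf1 and Fasn together thus made up most of the summed level of the 10 genes in cTEC, with 45.9% and 23.9% in the control library and 45.6% and 27.6% in the knockout library. In mTEC the levels were more even. Srebf1 stood at 72.6 and 84.8 TPM, Acly at 69.1 and 70.0 TPM, Me1 at 62.3 and 64.3 TPM and Fasn at 45.7 and 45.8 TPM. The intervals of neighbours in this order overlapped for Srebf1 and Acly in control mTEC, and for Acly and Me1 in knockout mTEC. Acacb (38.6 and 37.0 TPM) and Thrsp (36.3 and 36.8 TPM) also had overlapping intervals in both mTEC libraries.

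**Figure D1:**
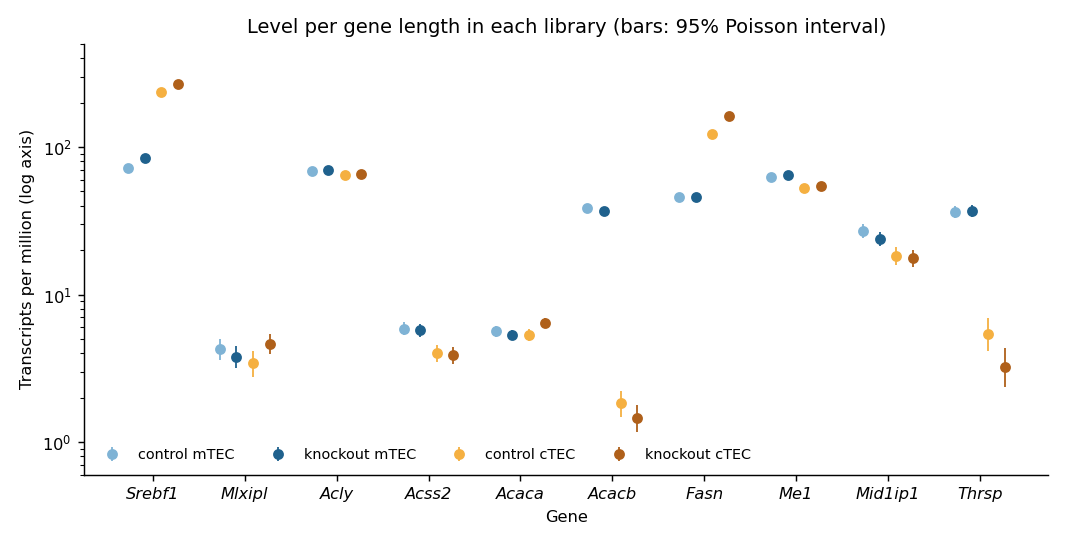
Level of each gene per gene length in the 4 libraries, in TPM on a log axis, with 1 point per library and 95% Poisson intervals that cover counting error only. Srebf1 and Fasn lie highest in the cTEC libraries (236 and 123 TPM in control cTEC), while Acacb and Thrsp lie at 38.6 and 36.3 TPM in control mTEC and at 1.83 and 5.39 TPM in control cTEC.

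Acss2, Acaca and Mlxipl were the low members in mTEC, with 3.77 to 5.88 TPM. In cTEC, Acaca, Acss2, Thrsp, Mlxipl and Acacb all lay between 1.46 and 6.42 TPM. The levels of several genes depend on the length used. For Acss2 and Acaca the deposited lengths (10163 and 17074 bases) exceed their longest GENCODE transcripts (3609 and 9513 bases). With the longest transcript as length, Acss2 in control mTEC moved from 5.88 to 13.6 TPM and Acaca from 5.63 to 8.28 TPM. Thrsp moved there from 36.3 to 46.4 TPM, which places it above Fasn (40.8 TPM) and Acacb (34.7 TPM) on that scale. Summed over the 10 genes, the level in mTEC was 368 TPM (control) and 377 TPM (knockout), and the level in cTEC 514 and 586 TPM.

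Between mTEC and cTEC, genes were called when at least 50 reads lay over the pair, the interval excluded equality and the ratio was at least 2-fold. By this rule 2 of the 10 genes (Acacb and Thrsp) were higher in mTEC in control mice, against 19% of the 15747 genes tested, and 2 (Srebf1 and Fasn) were lower, against 8.52%. In knockout mice the same 2 were higher, against 19.8%, and the same 2 lower, against 8.96%. The share of members called higher was close to the background. At 1.3-fold, Acss2 and Mid1ip1 joined the higher side, so that 4 of 10 were higher in each pair, against 28.2% of genes in control and 28.9% in knockout mice, and 2 of 10 were lower, also against 28.2% and 28.9%. For the 10 genes the median log2 ratio was 0.28 in control and 0.19 in knockout mice, against −0.05 and −0.08 over all genes tested.

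Srebf1 (ENSMUSG00000020538, mm10 chromosome 11, 60199089 to 60222581, minus strand) had 2442 and 3022 reads in control and knockout mTEC and 7104 and 9344 in control and knockout cTEC. Scaled to the libraries these are 143 and 172 CPM in mTEC and 465 and 533 CPM in cTEC, with both cTEC libraries above both mTEC libraries. The gene was 3.24-fold lower in mTEC in control mice (log2 ratio −1.70, interval −1.76 to −1.63) and 3.10-fold lower in knockout mice (−1.63, −1.69 to −1.57). Of all genes tested, 2.84% and 2.93% had a log2 ratio as low or lower. Gene counts do not separate the Srebf1 isoforms, which differ in their first exon.

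Fasn (ENSMUSG00000025153, chromosome 11, 120805846 to 120824547, minus strand) had 2988 and 3173 reads in mTEC and 7188 and 10981 in cTEC, or 175 and 181 CPM against 470 and 626 CPM. Its mTEC level was 2.68-fold lower in control mice (−1.42, −1.49 to −1.36) and 3.47-fold lower in knockout mice (−1.79, −1.85 to −1.74). These 2 intervals do not overlap. The mTEC libraries had like levels, and the knockout cTEC library stood above the control cTEC library. None of the 50-base windows of its longest transcript occurred in another gene.

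Acacb (ENSMUSG00000042010, chromosome 5, 114146535 to 114250761, plus strand) encodes the acetyl-CoA carboxylase at the mitochondrial outer membrane, whose malonyl-CoA restrains fatty acid import for oxidation. It had 2221 and 2255 reads in mTEC but only 94 and 87 in cTEC, or 130 and 128 CPM against 6.15 and 4.96 CPM. The difference was 21.1-fold in control mice (log2 ratio 4.40, 4.11 to 4.72) and 25.7-fold in knockout mice (4.68, 4.38 to 5.02). In each pair about the same share of genes, 2.30% and 2.31%, had a ratio as high or higher. Acaca (ENSMUSG00000020532, chromosome 11, 84129672 to 84401651, plus strand), the cytosolic carboxylase that feeds fatty acid synthase, did not follow it. Acaca had 574 and 575 reads in mTEC and 485 and 680 in cTEC. Its mTEC to cTEC log2 ratio was 0.09 (−0.09 to 0.26) in control and −0.25 (−0.41 to −0.08) in knockout mice.

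The 2 carboxylases therefore made up unlike mixtures. Per gene length, Acacb was 87.3% of the Acacb and Acaca total in control mTEC (interval 86.2 to 88.3) and 87.4% in knockout mTEC (86.4 to 88.4). In cTEC it was 25.6% (21.4 to 30.0) and 18.5% (15.2 to 22.1). With the longest transcript as length these shares became 80.7% and 80.9% in mTEC and 17.3% and 12.2% in cTEC. Of the Acaca windows, 52.6% also occur in the processed pseudogene Gm5182, which had 61 to 84 reads per library. Adding the reads of this copy left the Acaca log2 ratios between the populations at 0.05 and −0.21.

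Thrsp (ENSMUSG00000035686, chromosome 7, 97412938 to 97417730, minus strand) encodes Spot 14, a small lipogenic protein, and Mid1ip1 (ENSMUSG00000008035, chromosome X, 10715013 to 10719690, plus strand) its paralog, which promotes the assembly of acetyl-CoA carboxylase into filaments. Thrsp had 474 and 510 reads in mTEC and 63 and 44 in cTEC, or 27.8 and 29.0 CPM against 4.12 and 2.51 CPM. It was 6.70-fold higher in mTEC in control mice (log2 ratio 2.75, 2.37 to 3.16) and 11.4-fold higher in knockout mice (3.52, 3.09 to 4.01). Mid1ip1 differed much less, with 345 and 321 reads in mTEC and 207 and 232 in cTEC, and ratios of 1.49-fold (0.58, 0.33 to 0.84) and 1.38-fold (0.46, 0.22 to 0.72) toward mTEC. Thrsp was 57.2% and 60.7% of the pair per length in control and knockout mTEC, and 22.8% and 15.6% in cTEC. An antisense gene, Gm14493, overlaps Mid1ip1 and had 0 reads in all 4 libraries.

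**Figure D2:**
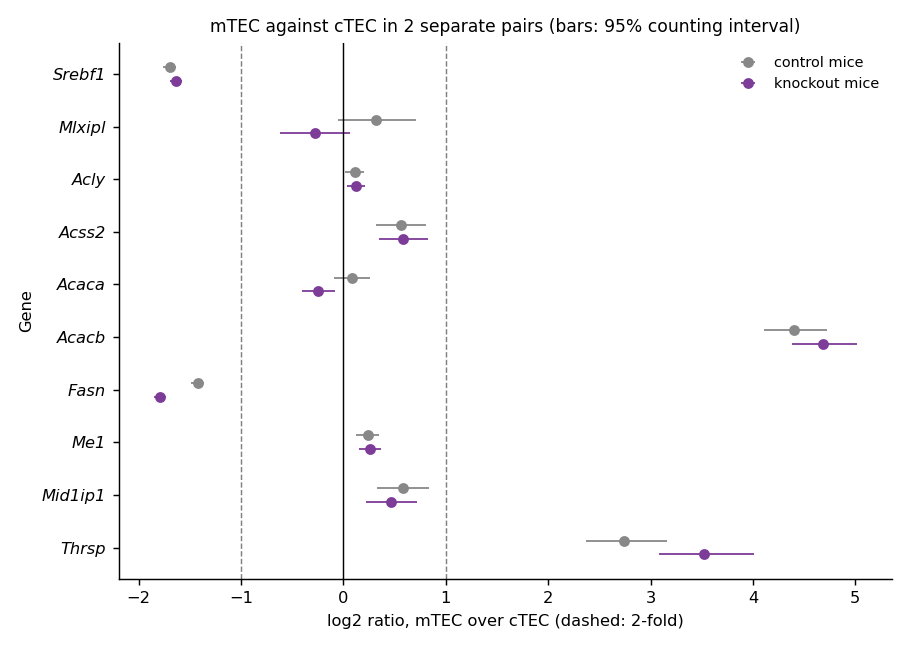
Log2 ratio of mTEC over cTEC for each gene in control mice and in knockout mice, with 95% counting intervals and dashed lines at 2-fold. Srebf1 and Fasn lie left of the lower line and Acacb and Thrsp right of the upper line in both pairs, which share no library, while the other 6 genes lie between the lines.

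The other 4 genes differed by less than 2-fold between the populations. Acly (ENSMUSG00000020917, chromosome 11, 100476353 to 100528000) had 2178 and 2337 reads in mTEC and 1812 and 2139 in cTEC, with ratios of 0.11 (0.02 to 0.20) and 0.12 (0.04 to 0.21). Me1 (ENSMUSG00000032418, chromosome 9, 86581371 to 86695953) had 1432 and 1564 reads in mTEC and 1090 and 1302 in cTEC, with ratios of 0.24 and 0.26. Acss2 (ENSMUSG00000027605, chromosome 2, 155517948 to 155585724) had 357 and 367 reads against 217 and 244, with ratios of 0.56 (0.31 to 0.81) and 0.58 (0.35 to 0.83). These 3 genes thus lay toward mTEC in both pairs, Acly and Me1 slightly and Acss2 by more than 1.3-fold. The gene span of Gss (369 to 510 reads) overlaps that of Acss2 on the opposite strand, but no window of the longest Acss2 transcript occurred in Gss. Ggt7, also on the opposite strand, shares 3.37% of these windows. It had 114 and 124 reads in mTEC and 25 and 28 in cTEC. Since the strand setting is not given, reads from sequence shared with Ggt7 cannot be told apart. Me1 shares 32.8% of its windows with other genes, of which the pseudogenes Gm7049 and Gm7329 had at most 3 reads each.

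Mlxipl (ENSMUSG00000005373, chromosome 5, 135089890 to 135138382) had few reads, 141 and 132 in mTEC and 101 and 160 in cTEC. Its mTEC to cTEC ratio was 0.32 (−0.05 to 0.71) in control and −0.28 (−0.62 to 0.06) in knockout mice, so no direction was resolved at this depth. The paralog Mlxip, a glucose-responsive factor also called MondoA, was the more abundant of the pair. Mlxipl was 17.9% and 17.0% of the Mlxipl and Mlxip total per length in control and knockout mTEC, and 13.1% and 19.2% in cTEC. By contrast, Srebf1 was 43.1% and 45.3% of Srebf1 and Srebf2 (the regulator of cholesterol synthesis) in mTEC but 62.4% and 64.4% in cTEC. Srebf2 was itself lower in mTEC, with log2 ratios of −0.57 in control and −0.50 in knockout mice.

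**Figure D3:**
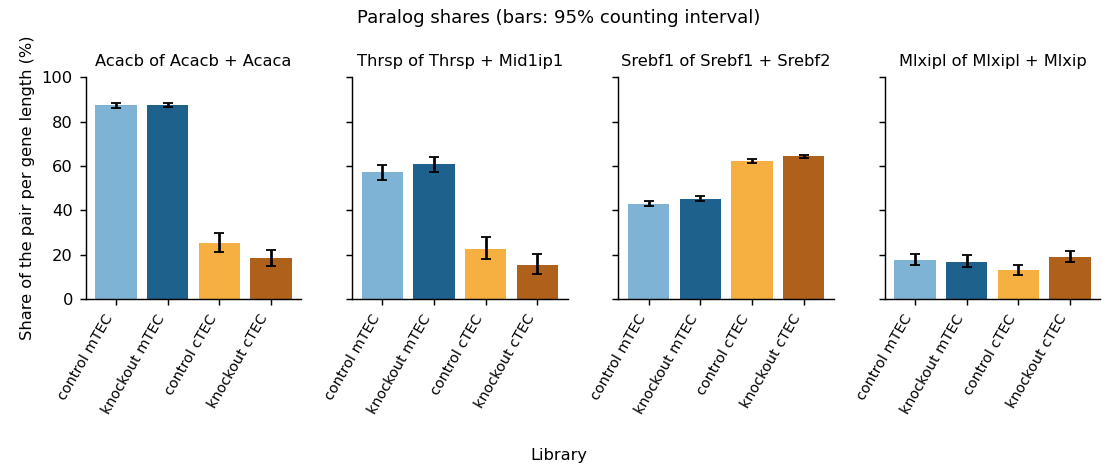
Share of the first named gene in 4 paralog pairs, per gene length, in each library; bars start at 0 and error bars are 95% counting intervals. Acacb is 87.3% of its pair in control mTEC and 25.6% in control cTEC, whereas Mlxipl is 13.1% to 19.2% of its pair in the 4 libraries.

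Beside these population differences, marker genes of other cell types also differed. The 10 adipocyte markers, of interest because fat cells are rich in Acacb and Thrsp, summed to 31.9 and 29.5 CPM in mTEC and 8.57 and 9.18 CPM in cTEC. All 10 had reads in mTEC and 8 of 10 in each cTEC library. Cfd was at 0 in both cTEC libraries, Lep in the control and Plin1 in the knockout library. Adipoq, the defining fat cell hormone gene, had 73 and 78 reads in mTEC and 4 and 2 in cTEC. Not all of the list lay toward mTEC: Plin4 had 17 and 15 reads in mTEC and 21 and 27 in cTEC, and Lipe stood at 5.22 and 4.33 against 3.08 and 4.79 CPM. Liver is the other classical lipogenic tissue, and all 8 hepatocyte genes, which mimetic mTEC also make, were on the higher side in mTEC in both pairs. They summed to 123 and 111 CPM in mTEC and 64.4 and 14.5 CPM in cTEC, with median log2 ratios of 0.70 in control and 3.69 in knockout mice. The 3 measured B cell markers lay toward mTEC as well, with medians of 1.82 and 1.94. Myeloid markers summed to 352 and 395 CPM in mTEC and 126 and 157 in cTEC, and proliferation genes to 422 and 416 against 221 and 244. Fibroblast and pericyte markers were split, with 4 of 8 toward mTEC and 4 toward cTEC in each pair. Their sum was 403 and 396 CPM in cTEC against 186 and 192 CPM in mTEC, of which Dcn alone was 297 and 301 against 71.0 and 71.0 CPM, while Col1a1 stood at 6.94 and 6.73 against 29.7 and 28.3 CPM. In bulk libraries, fewer cells of a type and less RNA per cell cannot be told apart. Whether the marker reads, those of adipocyte genes included, came from such cells or from the epithelial cells themselves was not tested. Their part in the ratios was not tested either.

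The genotype comparison asked whether loss of SCD1, which acts downstream of this pathway, went with other levels of its genes. In mTEC, none of the 10 genes was called at 1.3-fold in either direction, against 4% of 16466 genes called higher and 2.65% called lower. At 2-fold none was called either, against 0.504% and 0.431%. Srebf1 stood nearest to the threshold, with 143 CPM in control and 172 CPM in knockout mTEC, a log2 ratio of 0.26 (0.19 to 0.34). It was the only one of the 10 whose interval excluded equality in mTEC, and 11.7% of genes had a ratio as high or higher. All 10 cTEC markers, which like Srebf1 are higher in cTEC, were also on the higher side in knockout mTEC. They summed to 3060 and 3695 CPM, with a median log2 ratio of 0.23. Of 12 measured thymocyte markers 10 lay on that side too, with a median of 0.27, and of 5 measured endothelial markers 4, with a median of 0.63. The part of these shifts in the Srebf1 value was not tested. Fasn, at 175 and 181 CPM, had a ratio of 0.04 (−0.03 to 0.12), and Acacb, at 130 and 128 CPM, of −0.02 (−0.11 to 0.06). Acly stood at 0.06, Me1 at 0.08, Thrsp at 0.06, Acss2 at −0.0041, Acaca at −0.04, Mlxipl at −0.14 and Mid1ip1 at −0.15. The median over the 10 genes was 0.02, against 0.0066 over all genes tested.

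In cTEC, Fasn and Mlxipl were higher in the knockout library and Thrsp lower by the 1.3-fold rule. That is 2 of 10 genes higher, against 4.38% of 14445 genes tested, and 1 of 10 lower, against 4.73%. None reached 2-fold, against 0.492% and 0.692%. Fasn went from 470 CPM in control to 626 CPM in knockout cTEC, 1.33-fold higher (log2 ratio 0.41, 0.37 to 0.46), and 5.83% of genes had a ratio as high or higher. Mlxipl went from 6.61 to 9.13 CPM (101 and 160 reads), a ratio of 0.46 with a wide interval of 0.10 to 0.84. Thrsp went from 4.12 to 2.51 CPM (63 and 44 reads), a ratio of −0.71 (−1.31 to −0.14), and 1.99% of genes had a ratio as low or lower. With a minimum of 200 reads Thrsp was not measured in this pair.

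Srebf1 and Acaca were also on the higher side in knockout cTEC without reaching 1.3-fold. Srebf1 stood at 465 and 533 CPM (0.20, 0.15 to 0.24), and 16.9% of genes had a ratio as high or higher. Acaca stood at 31.7 and 38.8 CPM (0.29, 0.12 to 0.46), and at 0.27 (0.11 to 0.44) with the reads of its pseudogene copy added. Acly (0.04), Me1 (0.06), Acss2 (−0.03) and Mid1ip1 (−0.03) had intervals that included equality, as did Acacb at −0.31 (−0.75 to 0.13) on 94 and 87 reads. The median over the 10 genes was 0.05, against 0.01 over all genes tested.

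**Figure D4:**
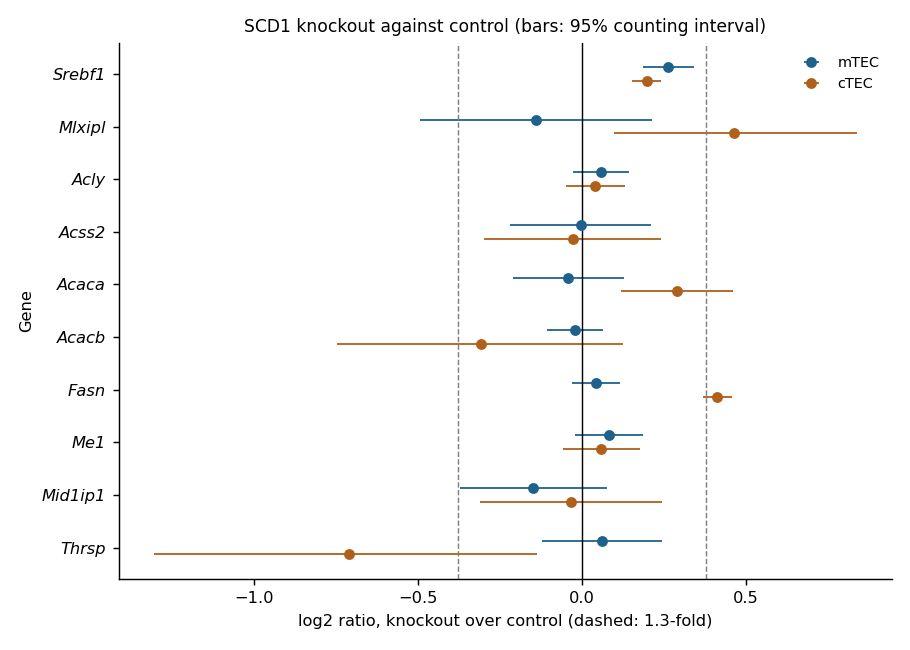
Log2 ratio of knockout over control for each gene in mTEC and in cTEC, with 95% counting intervals and dashed lines at 1.3-fold. In mTEC all 10 genes lie between the lines, with Srebf1 highest at 0.26, and in cTEC Fasn (0.41) and Mlxipl (0.46) lie beyond the upper line and Thrsp (−0.71) beyond the lower line.

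The genotype ratios of the 2 populations use separate libraries, so their difference could be given with an interval for counting error. This interval excluded 0 for 4 of the 10 genes. The share of all genes for which it does so was not taken, so the count is not read as a trait of these genes. Fasn stood 0.37 higher in cTEC on the log2 scale (0.29 to 0.45), Acaca 0.33 higher (0.09 to 0.57) and Mlxipl 0.60 higher (0.11 to 1.10), while Thrsp stood at −0.77 (−1.35 to −0.19). For Srebf1 the difference was −0.07 (−0.15 to 0.02). Other markers also differed between the cTEC libraries. Of the 10 marker lists the hepatocyte genes had the median farthest from 0, on the same side as Thrsp. They summed to 64.4 CPM in control and 14.5 CPM in knockout cTEC, with 6 of 6 measured genes lower and a median log2 ratio of −2.34. Of 9 measured mTEC markers 8 were lower, with a median of −0.19, and 8 of 8 measured myeloid markers were higher, with a median of 0.32. Of 4 measured endothelial markers 3 were higher and 1 lower, with a median of 0.57. All 10 cTEC markers were higher in knockout than in control cTEC, with a median log2 ratio of 0.33, as were the 12 measured thymocyte markers of 14, with a median of 0.38 and summed levels of 325 and 421 CPM. The summed level of the adipocyte markers was 8.57 and 9.18 CPM. Of the 2 measured, 1 was higher and 1 lower, with a median of −0.38. The part of these shifts in the ratios of Fasn, Thrsp and the other genes was not tested.

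The wider pathway was followed in 5 further lists with 59 genes, of which 55 were measured in mTEC and 52 in cTEC between genotypes. At 1.3-fold, 3 were higher and 2 lower in knockout mTEC, against 4% and 2.65% of all genes tested, and 1 was higher and 1 lower in knockout cTEC, against 4.38% and 4.73%. None of these counts is far above its background, and the single genes below are given as values. Scd1, the targeted gene, is the lower one in cTEC and one of the lower ones in mTEC. Of 16 genes that control SREBP and ChREBP, Insig1, which retains SREBP in the endoplasmic reticulum, was the 1 called in mTEC (402 and 560 reads, 0.43, 0.25 to 0.62), and 0 were called in cTEC. Prkaa1, a catalytic subunit of the kinase AMPK that inhibits the carboxylases, had 494 and 729 reads in cTEC (0.36, 0.20 to 0.53), short of 1.3-fold. Of 13 measured genes of carbon and NADPH supply, Slc16a1, a transporter of lactate and other monocarboxylates, was the 1 called in cTEC (88 and 158 reads, 0.64, 0.26 to 1.04).

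Among 7 measured ChREBP targets, Khk (fructokinase, 199 and 272 reads, 0.41) and Pklr (pyruvate kinase of liver and red cells, 83 and 115 reads, 0.42, 0.01 to 0.85) were called higher in knockout mTEC, where Mlxipl itself had a ratio of −0.14. None of the 5 measured in cTEC was called, where Mlxipl was called higher. Txnip, the target with most reads, stood at 0.09 and 0.07. Of 7 measured genes of the separate mitochondrial fatty acid synthesis, Oxsm, its ketoacyl synthase, was called lower in mTEC (149 and 115 reads, −0.42, −0.78 to −0.06) and 0 were called in cTEC. Of the genes that handle malonyl-CoA and fatty acids, Scd1 was the 1 called in each population. Mlycd, which breaks down malonyl-CoA, had 357 and 517 reads in cTEC (0.34, 0.14 to 0.54), and Acsl1, which activates fatty acids, 489 and 644 in mTEC (0.35, 0.18 to 0.53). Mid1, whose protein binds that of Mid1ip1, had a ratio of −0.33 in mTEC.

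Between populations at 2-fold, 6 of the 55 measured wider genes were higher in control mTEC and 2 lower, and 5 and 3 in knockout mice. These are shares below the backgrounds of 19% and 19.8% on the higher side, and of 8.52% and 8.96% on the lower side. Tkt, the transketolase of the pentose phosphate pathway, was 3.23-fold and 3.52-fold higher in mTEC (7662 and 8297 reads against 2125 and 2351). Slc16a1 was 2.19-fold higher in control mice and 1.67-fold in knockout mice. Olah, a thioesterase that ends fatty acid synthesis early, had 79 and 77 reads in mTEC against 4 and 3 in cTEC. Its ratios were 15.9-fold (log2 interval 2.73 to 6.06) and 22.1-fold (3.08 to 6.99). Scd1 was 3.61-fold and 3.78-fold higher in mTEC, also among its residual reads in the knockouts.

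On the ChREBP list, Pklr (83 and 115 reads against 10 and 17) and Gpd1, a glycerol phosphate dehydrogenase (80 and 79 reads against 22 and 25), were higher in mTEC, and Txnip was 2.92-fold and 2.88-fold lower. Of the Pklr windows 23.2% and of the Txnip windows 18.4% occur in another gene. Prkaa2, the other AMPK catalytic subunit, was 2.06-fold and 2.29-fold lower in mTEC. Gpam, which starts glycerolipid synthesis, was 1.95-fold lower in mTEC in control mice and 2.07-fold in knockout mice. Elovl6, the palmitate elongase, was 1.46-fold and 1.64-fold lower, and the citrate carrier Slc25a1 1.69-fold and 1.71-fold lower. Others lay on either side. Prkag1, a regulatory subunit of AMPK, had log2 ratios of −0.94 and −0.95, Dbi, which binds acyl-CoA, −0.55 and −0.57, and the mitochondrial malic enzyme Me2 −0.50 and −0.51. Nr1h3, which encodes the sterol receptor LXR alpha that induces Srebf1, lay toward mTEC at 0.84 and 0.80. At 1.3-fold, 9 of the 55 wider genes were higher in mTEC in each pair, and 15 were lower in control and 16 in knockout mice, against 28.2% and 28.9% of all genes on each side. The wider genes thus did not all lie on the side of Srebf1 and Fasn.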

How the data were processed

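RNA of 4 bulk libraries was measured, 1 for each pairing of genotype (SCD1 knockout, littermate control) and population (mTEC, cTEC). The authors deposited a table of unnormalized counts of reads for each gene. CASAVA, HISAT2 2.0.5 and featureCounts 1.5.0-p3 were used on the build mm10, per the submitters' processing notes. How reads with several matches were counted, whether strand was used and which annotation release served was not given in the sources used here. Per the file headers, the deposited table also holds a gene length in bases, an other kind of value, which was used for TPM.

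Counts were scaled with TMM in edgeR 4.0.16 (R 4.3.3). Ratios and intervals were computed in Python 3.11.15 with scipy 1.17.1, pandas 2.3.3 and numpy 2.4.6, and figures with matplotlib 3.10.9. Log2 ratios have a prior count of 0.5 reads and an exact conditional binomial (Clopper-Pearson) 95% interval, levels an exact Poisson interval. The difference between populations has an interval from the summed Poisson variances. Since PCR copies of a molecule are counted as separate reads, all intervals here are for counting error alone. In CPM, a count of 3 corresponds to 0.171 to 0.196. The steps were tested on data simulated with Poisson counting error alone, which does not test variation between libraries. With 1 library per group no p-value was computed.

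The 10 genes, the 5 wider lists and the 10 marker lists were chosen with earlier results of these data known. All 10 genes are named. From the wider lists, genes are named that pass 1.3-fold between genotypes or 2-fold between populations, or, up to 4 per list, have the interval bound farthest from equality in a comparison. The symbols Hsd17b8 and Tf were matched through H2-Ke6 and Trf. Sequence sharing was measured with 50-base windows of the longest GENCODE M21 transcript of each gene. Its gene starts and ends equal those deposited for 53499 of 54409 shared identifiers. Promoters are from RefSeq, build GRCm38.p6. Alternatives were DESeq2 1.42.0 size factors, library totals, a minimum of 200 reads or none, a prior count of 2, other length denominators and, chosen after seeing the data, the reads of pseudogene copies added.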

Additional observations from a re-analysis of the deposited data

Results flagged for a closer look

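For 3 of the 10 genes, the ratios of knockout to control had opposite signs in the 2 populations. With 1 library per group this difference was not tested, and any gene with ratios of unlike sign would be listed. Over all genes tested, 52.0% in mTEC and 52.4% in cTEC had a ratio above 0. The share of all genes with unlike signs was not taken. For Mlxipl, the ratio in cTEC minus that in mTEC was 0.60 on the log2 scale. For Acaca it was 0.33, and for Thrsp −0.77. The intervals for counting error are given with the results above. In each of the 3, the mTEC ratio lay within counting error of equality, and the direction rests on the cTEC pair.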

How the results depend on the processing

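No paired analysis was possible because the labels give the libraries no replicate numbers and the results come from no test. An additive fit over genotype and population, which would take the difference between their ratios as error, was not run. No library could be left out, since each group has 1. The counts of the 10 genes called in the 4 comparisons were the same with DESeq2 size factors, no minimum of reads, a prior count of 2 and the reads of pseudogene copies added. With library totals alone they were the same but for 1 count: 5 of the 10 genes, against 4, were at least 1.3-fold higher in mTEC of control mice, the added one being Mlxipl. With a minimum of 200 reads, 0 of the 10 genes were called at least 1.3-fold lower in knockout cTEC, against 1, because Thrsp then had too few reads, and Acacb was not measured in that pair either. The 4 genes whose genotype ratio differed between populations beyond counting error were the same 4 under the other scalings and the other prior count. The share of all genes that differ in this way was not taken under any setting. With library totals alone, the mTEC to cTEC log2 ratios of Srebf1, Fasn and Acly moved by more than their intervals, to −1.61, −1.33 and 0.20 in control mice and −1.54, −1.70 and 0.22 in knockout mice. For Acaca the ratios on that scale were 0.178 (0.001 to 0.355) in control and −0.152 (−0.314 to 0.011) in knockout mice. Its interval then excluded equality in control and not in knockout mice, the reverse of the main setting. Shares per length depended on the length. With the longest transcript in place of the deposited length, Acacb was 80.7%, 80.9%, 17.3% and 12.2% of its pair in control mTEC, knockout mTEC, control cTEC and knockout cTEC. In the same order Thrsp was 66.5%, 69.6%, 30.5% and 21.5%, Srebf1 41.2%, 43.4%, 60.6% and 62.6%, and Mlxipl 22.6%, 21.6%, 16.8% and 24.2%. Of 40 levels in TPM, 29 moved beyond counting error with this length and 26 with protein-coding genes alone as the total. Depth limited Mlxipl in all libraries and Acacb and Thrsp in cTEC.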
